A study of Mus musculus with 9 samples.

Results

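The zinc importers of the Slc39 family, also called ZIP proteins, were followed in RNA sequencing libraries labelled as primary retinal ganglion cells of the mouse. These cells send their axons through the optic nerve to the brain. The deposited gene table held 24772 entries, and 14 of them were Slc39 genes. A list took 10 of these 14 (Slc39a1, Slc39a3, Slc39a6, Slc39a7, Slc39a8, Slc39a9, Slc39a10, Slc39a11, Slc39a13 and Slc39a14), matched from Ensembl identifiers to symbols. It left out the other 4 (Slc39a2, Slc39a4, Slc39a5 and Slc39a12). All 10 passed the filter on low counts, as did Slc39a2 and Slc39a12 of the other 4. The CKO group (3 libraries) carried a conditional knockout of ZnT3, the vesicular zinc transporter encoded by Slc30a3, in amacrine cells, the interneurons that synapse onto ganglion cells, and was taken 3 days after optic nerve crush. The ONC group (3 libraries) was wild type and also 3 days after crush. The Ctrl group (3 libraries) was wild type and not crushed. The Cre driver of the knockout, the strain and the age are not given in the sources used here, and no intact knockout group was analysed here. Separate animals are not stated for the libraries of a group, so a p-value here refers to the spread between libraries, which could be technical.

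Slc39 proteins carry zinc into the cytosol, either across the plasma membrane or out of the endoplasmic reticulum, the Golgi and vesicles. Most Slc30 proteins (ZnT) move zinc the opposite way, out of the cytosol. In the retina, ZnT3 loads zinc into synaptic vesicles of amacrine cells, and zinc released from them after optic nerve injury reaches ganglion cells. Inside cells, zinc is buffered by metallothioneins. The comparisons below give the importer transcripts of these libraries after crush, and with and without the ZnT3 knockout in amacrine cells.

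Total expected counts ranged from 14166996 to 25571715 per library. Levels are given as CPM, expected counts scaled to library size with edgeR's TMM factors, unless another scale is named. The ONC columns of the table are numbered 3, 5 and 6 and could not be tied to single ONC samples. Columns 3 and 6 were closer to each other (r = 0.992 across genes) than any pair within CKO or within Ctrl (r = 0.957 to 0.965). They differed by more than counting noise, with a variance of 3.55 times that of counting against 10.5 to 13.7 times for those pairs. Whether they are separate samples of tissue cannot be told from the table, so the n of 3 for ONC may overstate its independent samples. By contrast, column 5 was nearer to the CKO libraries (r = 0.952 to 0.954) than to columns 3 and 6 (r = 0.933 to 0.937). Its r with the Ctrl libraries was 0.935 to 0.940. By variance over counting, column 5 was also nearer to Ctrl (24.6 to 36.2 times) than to columns 3 and 6 (56.9 to 61.4 times). Columns 3 and 6 lay far from both other groups, at 56.6 to 77.2 times for CKO and 70.6 to 104 times for Ctrl. Whether column 5, or columns 3 and 6, carry the right label was not tested. Results that rest on column 5 are therefore given with and without it. Markers of ganglion cells were scarce: a list of 14 summed to 114 to 141 CPM by library totals in CKO, 125 to 162 in ONC and 154 to 252 in Ctrl, against 97720 to 101084, 101155 to 109422 and 86836 to 87812 for 15 rod markers. Pou4f2, a defining transcription factor of ganglion cells, was at 0 in 5 of 9 libraries. Fewer cells of a type and less RNA per cell cannot be told apart in such bulk samples. The levels below are those of whole libraries, in which rod markers far outweighed ganglion cell markers, and cannot be assigned to ganglion cells. Slc30a3 itself had 1, 4 and 2 counts in CKO, 0, 1 and 0 in ONC and 2, 10 and 16 in Ctrl, so its counts do not check a deletion made in other cells.

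Crush was accompanied by higher transcripts of 4 of the 10 importers in ONC than in Ctrl, and by lower transcripts of none. They were Slc39a7 (2.48-fold), Slc39a3 (2.36-fold), Slc39a1 (2.26-fold) and Slc39a13 (2.15-fold), of which Slc39a1 and Slc39a3 serve at the plasma membrane and Slc39a7 and Slc39a13 serve on internal membranes. A gene was called when edgeR's quasi-likelihood test gave a Benjamini-Hochberg adjusted p under 0.05 over all 15841 genes tested. Of all those genes, 13% were called higher and 12.8% lower in this comparison. The groups did not overlap for the same 4 members, each time with ONC above, and 18.3% of all genes had ONC wholly above Ctrl. The unlisted Slc39a2 and Slc39a12 had log2 fold changes of -0.16 and -2.48 in ONC against Ctrl and were not called. The median log2 fold change was 0.57 over the 10 members, with 8 above zero, and -0.04 over all genes tested, with 47.8% above zero. None of these calls was made without columns 3 and 6: with column 5 as the only ONC library, none of the 10 was called (4.2% of all genes were called higher), in a fit that takes the lone library to vary like the other groups. Without column 5, 5 were called higher (23.1% of all genes). With columns 3 and 6 summed into 1 library, 3 were called (1221 of 16449 genes were called higher), and Slc39a3 was not (edgeR adjusted p = 0.0638).

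The promoters of these 4 genes are shown because zinc-responsive and endoplasmic-reticulum-stress-responsive transcription of zinc genes is known to act through short promoter motifs. The sequences are from RefSeq on GRCm38.p6, 5′ to 3′ on the strand of the gene, from 250 bases before the start site to 30 bases after it, and capitals mark matches to a searched motif. Slc39a13 is at chr2:91070286-91070565 (minus strand), Slc39a1 at chr3:90247942-90248221 (plus strand), Slc39a3 at chr10:81037286-81037565 (minus strand) and Slc39a7 at chr17:34031661-34031940 (minus strand).
Slc39a13: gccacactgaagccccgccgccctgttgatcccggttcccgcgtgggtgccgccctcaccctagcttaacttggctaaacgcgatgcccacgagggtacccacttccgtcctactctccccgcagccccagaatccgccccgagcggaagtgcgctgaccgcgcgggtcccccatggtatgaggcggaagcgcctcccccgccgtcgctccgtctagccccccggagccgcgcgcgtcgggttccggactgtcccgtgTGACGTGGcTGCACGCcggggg
Slc39a1: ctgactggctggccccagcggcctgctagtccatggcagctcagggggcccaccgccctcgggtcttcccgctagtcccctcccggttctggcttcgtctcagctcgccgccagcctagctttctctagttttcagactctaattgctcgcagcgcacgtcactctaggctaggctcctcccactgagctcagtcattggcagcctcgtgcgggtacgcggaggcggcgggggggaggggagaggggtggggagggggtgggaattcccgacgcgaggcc
Slc39a3: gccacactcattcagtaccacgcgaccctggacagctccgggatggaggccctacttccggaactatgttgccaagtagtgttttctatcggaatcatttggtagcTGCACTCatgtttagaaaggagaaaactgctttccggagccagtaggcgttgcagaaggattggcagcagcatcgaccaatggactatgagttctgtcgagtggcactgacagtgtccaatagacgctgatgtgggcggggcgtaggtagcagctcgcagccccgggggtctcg
Slc39a7: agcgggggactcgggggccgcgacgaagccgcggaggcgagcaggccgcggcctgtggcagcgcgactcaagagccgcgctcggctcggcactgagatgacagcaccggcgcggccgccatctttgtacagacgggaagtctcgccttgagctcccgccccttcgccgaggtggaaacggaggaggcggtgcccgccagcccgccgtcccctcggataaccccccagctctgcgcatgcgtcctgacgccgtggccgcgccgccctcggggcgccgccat

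The motifs searched, on both strands of the RefSeq windows from 250 bases before to 50 bases after each start, were the metal response element core (TGCACNC or TGCGCNC), which the zinc sensor Mtf1 binds, and the unfolded protein response element core (TGACGTGG). Slc39a13 held TGACGTGG from base 9 after the start site, which 0.676% of 32851 promoters hold. It also held a metal response element core from base 18. Slc39a3 held a metal response element core at -144, and Slc39a1 and Slc39a7 held neither motif in these windows. The metal response element core occurs in 25.7% of all promoters and was found in 5 of the 11 windows of the 8 members searched (Slc39a3, Slc39a8, Slc39a11 and Slc39a13). Slc39a14 had no window, and windows on chromosome 18, which holds Slc39a6, were left out of the search of members. A match to so short a motif is a description of the letters and not of binding.

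Slc39a1 (ENSMUSG00000052310, chromosome 3, 90248172 to 90253612, GRCm38) encodes ZIP1, a widely expressed plasma membrane zinc importer. Its level was 23.1, 18.9 and 24.7 CPM in ONC columns 3, 5 and 6, against 8.77, 10.01 and 10.7 CPM in Ctrl libraries 1, 2 and 3. Every ONC library, column 5 included, lay above every Ctrl library. The means were 22.2 ± 2.99 CPM in ONC and 9.82 ± 0.966 CPM in Ctrl (SD, n = 3 each), a log2 fold change of 1.18 ± 0.22 (SE) with an edgeR adjusted p of 0.00496. Without column 5 it was 1.34 (edgeR adjusted p = 0.000214), and with column 5 alone 0.97 (edgeR adjusted p = 0.0823).

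Slc39a3 (ENSMUSG00000046822, chromosome 10, 81028538 to 81037426) encodes ZIP3, a close relative of ZIP1 that also imports zinc at the plasma membrane. It had 28.2, 12.4 and 25.7 CPM in ONC columns 3, 5 and 6, against 6.14, 9.87 and 12.1 CPM in Ctrl. Columns 3 and 6 stood far above the rest, and column 5 barely cleared the highest Ctrl library. The log2 fold change was 1.24 ± 0.33 (edgeR adjusted p = 0.0187). It was 1.57 without column 5 (edgeR adjusted p = 0.000171) and 0.43 with column 5 alone (edgeR adjusted p = 0.519). The call was also lost without column 3 (edgeR adjusted p = 0.0714), without column 6 (0.0632) and without Ctrl replicate 1 (0.0627).

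Slc39a7 (ENSMUSG00000024327, chromosome 17, 34028269 to 34031682) encodes ZIP7, which releases zinc from the endoplasmic reticulum and Golgi into the cytosol and is switched on by phosphorylation by casein kinase 2. Its level was 43.2, 22.8 and 41.2 CPM in ONC columns 3, 5 and 6, against 16.2, 14.8 and 12.3 CPM in Ctrl. All ONC libraries lay above all Ctrl libraries, with column 5 nearer to Ctrl than to columns 3 and 6. The means were 35.8 ± 11.3 CPM in ONC and 14.4 ± 1.94 CPM in Ctrl, with a log2 fold change of 1.31 ± 0.24 (edgeR adjusted p = 0.00414), the highest of the 10. Without column 5 it was 1.61 (edgeR adjusted p = 3.2e-06), and with column 5 alone 0.69 (edgeR adjusted p = 0.115).

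Slc39a13 (ENSMUSG00000002105, chromosome 2, 91061791 to 91070417) encodes ZIP13, an intracellular zinc transporter of the Golgi and vesicles whose loss in humans and mice causes a connective tissue disorder. It had 18.1, 11.9 and 15.8 CPM in ONC columns 3, 5 and 6, against 8.73, 6.65 and 5.97 CPM in Ctrl. The groups were again separate, with column 5 the lowest of ONC. The log2 fold change was 1.10 ± 0.24 (edgeR adjusted p = 0.00831), with 1.31 without column 5 (edgeR adjusted p = 0.000361) and 0.77 with column 5 alone (edgeR adjusted p = 0.196). The value is uncertain, because Psmc3, a proteasome subunit gene on the opposite strand, overlaps 4579 bases of Slc39a13. The labels call the libraries stranded, whereas the tagmentation kit they name does not mark the strand, and which holds was not tested. Psmc3 was itself called higher in ONC than in Ctrl (0.58 ± 0.11, edgeR adjusted p = 0.0047).

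**Figure D1:**
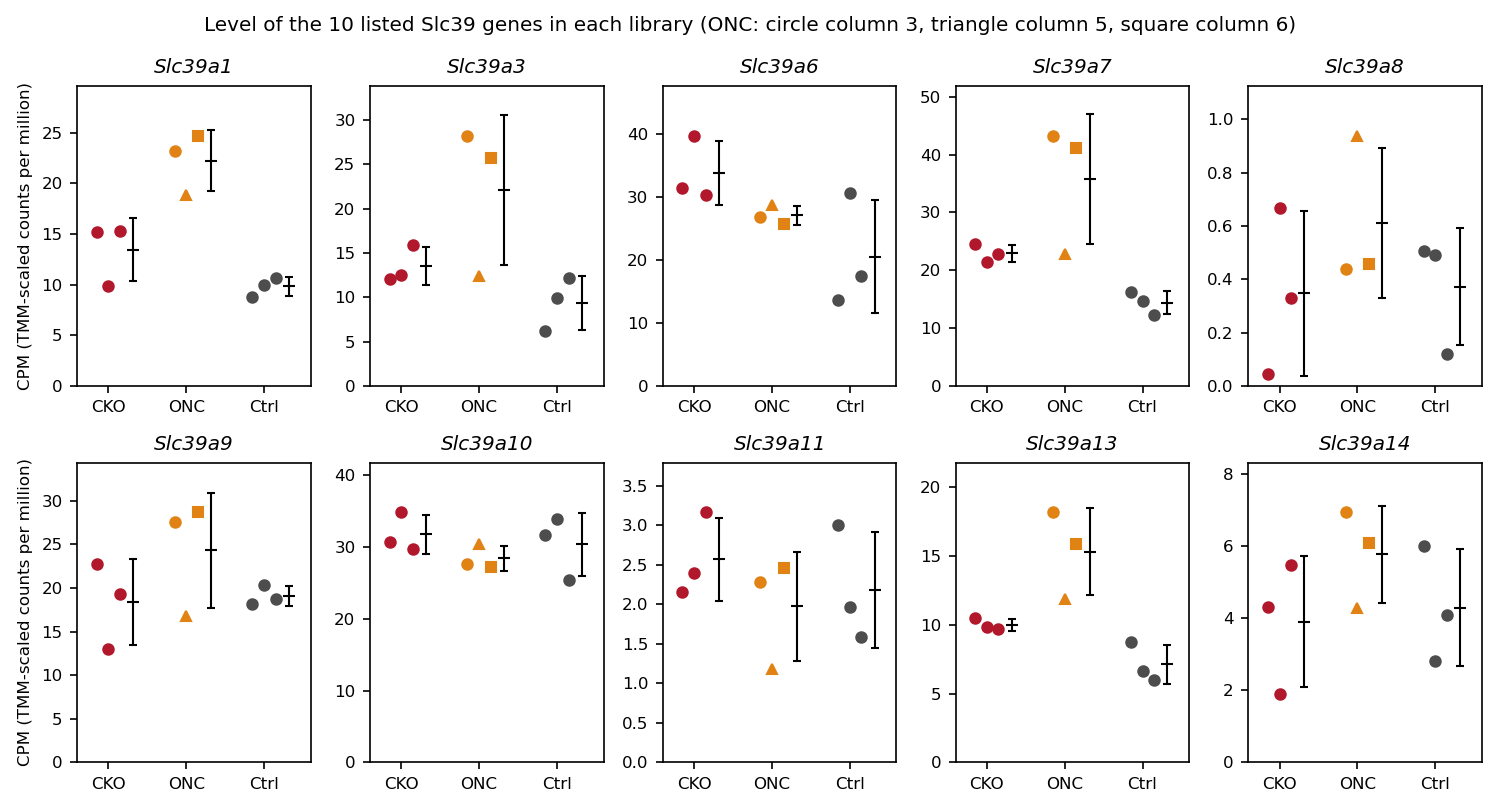
Level of each listed Slc39 gene in every library, in CPM after TMM scaling, with CKO, ONC and Ctrl from left to right, 1 point per library and the mean ± SD beside them. For Slc39a7 the ONC points lie at 43.2, 22.8 and 41.2 CPM, above the Ctrl points at 16.2, 14.8 and 12.3 CPM, and the lowest of them (column 5) lies among the CKO points.

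The other plasma membrane importers of the list were not called between ONC and Ctrl. Slc39a6 (ZIP6) and Slc39a10 (ZIP10) are close relatives that pair with each other at the plasma membrane and are evolutionarily related to prion proteins. Slc39a6 had 26.8, 28.7 and 25.8 CPM in ONC columns 3, 5 and 6, against 13.6, 30.6 and 17.5 CPM in Ctrl. Ctrl replicate 2 lay above all ONC libraries and the other Ctrl libraries below them. The log2 fold change was 0.41 ± 0.26 (edgeR adjusted p = 0.262), and it was 0.85 (edgeR adjusted p = 0.024) without Ctrl replicate 2, the library of lowest depth. Slc39a10 was nearly level, at 27.7, 30.4 and 27.2 CPM in ONC and 31.7, 34.0 and 25.5 CPM in Ctrl, with a log2 fold change of -0.09 ± 0.16 (edgeR adjusted p = 0.696).

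The remaining internal-membrane members did not pass the test either. Slc39a9 (ZIP9, of the Golgi and plasma membrane) had 27.5, 16.7 and 28.6 CPM in ONC columns 3, 5 and 6, against 18.1, 20.4 and 18.8 CPM in Ctrl. Columns 3 and 6 lay above Ctrl and column 5 below it, with a log2 fold change of 0.35 ± 0.25 (edgeR adjusted p = 0.317). Without column 5, Slc39a9 was called, at 0.61 (edgeR adjusted p = 0.0263), and with column 5 alone its sign turned, at -0.16. Slc39a11 (ZIP11, an intracellular member) had 2.28, 1.18 and 2.46 CPM in ONC and 3.00, 1.96 and 1.58 CPM in Ctrl, and the groups overlapped (-0.14 ± 0.46, edgeR adjusted p = 0.847).

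Slc39a14 (ZIP14) and Slc39a8 (ZIP8) also carry manganese and iron, and both were low. Slc39a14 had 6.93, 4.29 and 6.09 CPM in ONC and 6.002, 2.80 and 4.07 CPM in Ctrl (0.42 ± 0.42, edgeR adjusted p = 0.484). Slc39a8 was under 1 CPM in every library, with 1, 14.89 and 7.02 expected counts in CKO, 10, 19 and 11.26 in ONC and 10.89, 7.01 and 2.99 in Ctrl. At that depth its log2 fold change of 0.73 ± 0.95 between ONC and Ctrl (edgeR adjusted p = 0.602) leaves both directions within its error.

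In the knockout, none of the 10 importers was called against ONC, although the members called after crush had lower means in CKO. Of all genes tested, 0.587% were called higher and 0.278% lower in this comparison. At an unadjusted p under 0.05 there were 4 members (27.2% of all genes): Slc39a1, Slc39a3, Slc39a7 and Slc39a13. DESeq2 called 1 member, Slc39a1 (log2 fold change -0.73, DESeq2 adjusted p = 0.0228, with 6.77% of all genes called lower by that tool), and limma-voom called 0. The median log2 fold change was -0.59 over the members and -0.02 over all genes. Because CKO against ONC and ONC against Ctrl share the ONC libraries, their opposite signs are not independent.

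Slc39a1 had 15.2, 9.85 and 15.3 CPM in CKO replicates 1, 2 and 3, all below the ONC libraries at 23.1, 18.9 and 24.7 CPM. Its log2 fold change was -0.73 ± 0.22 (edgeR adjusted p = 0.0801). Slc39a13, at 10.5, 9.81 and 9.67 CPM in CKO against 18.1, 11.9 and 15.8 CPM in ONC, was the other member with CKO wholly below ONC (-0.62 ± 0.24, edgeR adjusted p = 0.124). Slc39a6 was wholly above, with 31.5, 39.7 and 30.4 CPM in CKO against 26.8, 28.7 and 25.8 CPM in ONC (0.32 ± 0.26, edgeR adjusted p = 0.443). Of all genes, 26.2% had CKO and ONC groups that did not overlap in either direction, against these 3 of 10.

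Slc39a7 had 24.5, 21.5 and 22.8 CPM in CKO, against 43.2, 22.8 and 41.2 CPM in ONC columns 3, 5 and 6, so column 5 lay inside the CKO range (-0.64 ± 0.23, edgeR adjusted p = 0.11). Slc39a3 showed the same layout, with 12.1, 12.5 and 15.9 CPM in CKO against 28.2, 12.4 and 25.7 CPM in ONC (-0.71 ± 0.32, edgeR adjusted p = 0.178). Column 5 alone thus differed little from CKO for both genes, with log2 fold changes of -0.00089 for Slc39a7 and 0.11 for Slc39a3.

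Without column 5, 5 members were called lower in CKO than in ONC, beside 18.1% of all genes called lower in that fit. These were Slc39a3 (-1.04, edgeR adjusted p = 0.00478), Slc39a7 (-0.93, 0.000475), Slc39a1 (-0.88, 0.00612), Slc39a13 (-0.81, 0.0124) and Slc39a9 (-0.66, 0.0224). Over the 10 members, column 5 was below both columns 3 and 6 for 7 (44.3% of all genes) and within the CKO range for 5 (41.8%). Columns 3 and 6 were above all CKO libraries for 6 (32.6%). The direction of the CKO difference in Slc39a3 and Slc39a9 therefore depends on which ONC columns are used, and both were above zero with column 5 alone (0.11 and 0.12).

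Slc39a9 had 22.7, 13.0 and 19.3 CPM in CKO, against 27.5, 16.7 and 28.6 CPM in ONC (-0.41 ± 0.25, edgeR adjusted p = 0.311). The CKO range took in column 5. Slc39a10 had 30.7, 34.8 and 29.8 CPM in CKO, against 27.7, 30.4 and 27.2 CPM in ONC (0.16 ± 0.16, edgeR adjusted p = 0.55). Slc39a11, at 2.15, 2.40 and 3.16 CPM in CKO, overlapped with ONC (0.38 ± 0.45, edgeR adjusted p = 0.626). Slc39a14, at 4.31, 1.91 and 5.47 CPM in CKO, did so too (-0.57 ± 0.42, edgeR adjusted p = 0.408), as did Slc39a8 (-0.80 ± 0.95, edgeR adjusted p = 0.62).

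Crushed knockout against intact wild type differs in injury and genotype at once, and no member was called there. Of all genes tested, 4.32% were called higher and 4.58% lower. Slc39a7 averaged 22.9 ± 1.50 CPM in CKO and 14.4 ± 1.94 CPM in Ctrl, with a log2 fold change of 0.67 ± 0.23 (edgeR adjusted p = 0.103). Slc39a13 averaged 9.98 ± 0.418 CPM in CKO and 7.12 ± 1.44 CPM in Ctrl (0.49 ± 0.24, edgeR adjusted p = 0.24). Both had CKO wholly above Ctrl, as did 17.2% of all genes. Slc39a6 had the highest fold change, at 0.73 ± 0.26 (edgeR adjusted p = 0.108), with its Ctrl replicate 2 at 30.6 CPM overlapping CKO. Slc39a1 (0.45 ± 0.22, edgeR adjusted p = 0.244) and Slc39a3 (0.52 ± 0.33, edgeR adjusted p = 0.368) had means of 13.4 ± 3.10 and 13.5 ± 2.13 CPM in CKO. The other 5 members had log2 fold changes between -0.15 (Slc39a14) and 0.24 (Slc39a11). At an unadjusted p under 0.05 there were 2 members, Slc39a6 and Slc39a7 (23.9% of all genes), while DESeq2 called 0 and limma-voom 1, Slc39a6 (log2 fold change 0.86, limma-voom adjusted p = 0.042, with 4.32% of all genes called higher by that tool).

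**Figure D2:**
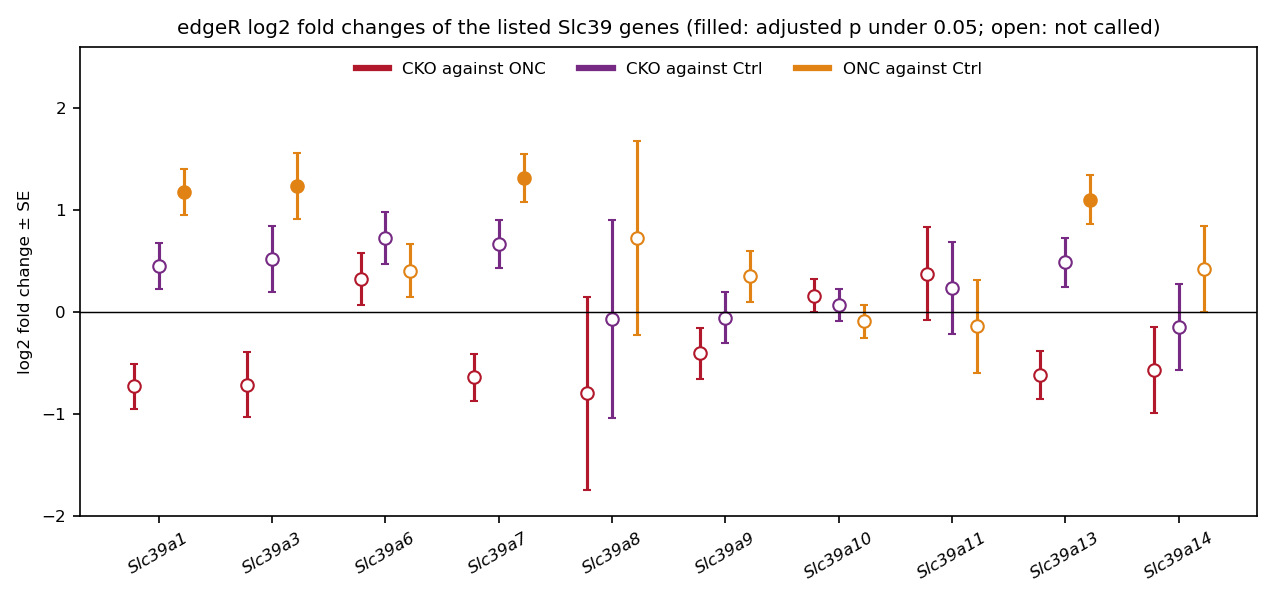
Log2 fold change ± SE from edgeR for each listed Slc39 gene in CKO against ONC, CKO against Ctrl and ONC against Ctrl, with filled points called at an adjusted p under 0.05. The 4 filled points are Slc39a1, Slc39a3, Slc39a7 and Slc39a13 in ONC against Ctrl (1.10 to 1.31), and Slc39a8 has the widest error.

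The correlations of log2 CPM over the 9 libraries among the 6 pairs of the 4 members called after crush ran between 0.742 and 0.974, the highest between Slc39a7 and Slc39a13, while the other 39 pairs of members ran between -0.650 and 0.718 with a median of 0.173. The 4 were picked for the same group difference that enters these correlations, and the points share libraries and groups, so the values are descriptive. The gene most like Slc39a7 over the 9 libraries was Vcp (r = 0.991), an ATPase that extracts proteins from the endoplasmic reticulum. For Slc39a13 it was Kmt5a (r = 0.991), a histone H4 lysine methyltransferase, for Slc39a1 Rgs20 (r = 0.984), a regulator of G protein signalling, and for Slc39a3 Edc4 (r = 0.982), an mRNA decapping factor. The other 6 had nearest genes at 0.915 to 0.987, among them Klhl25 for Slc39a14 and Myof for Slc39a6.

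The base composition of the longest annotated transcript of each member was also compared. For Slc39a7, Slc39a8 and Slc39a14 that transcript is annotated as a retained intron. The annotated transcripts of the 4 called members have 53.2% (Slc39a1), 59.4% (Slc39a3), 57.5% (Slc39a7) and 59.7% (Slc39a13) G and C, above 69.8%, 94.4%, 89.2% and 95.2% of the tested genes that have a value, whose median is 49.3%. Among the uncalled members, Slc39a11 has 53.9%, above 73.4% of tested genes and higher than Slc39a1, and Slc39a14 has 51.7%, also above the median. Slc39a6 (48.7%), Slc39a9 (47.7%), Slc39a10 (44.5%) and Slc39a8 (39.5%) lie below it. With GC content and length corrected in the same test, 2 of the 10 members were called in ONC against Ctrl (12.7% of all genes were called higher there): Slc39a1 (0.81, edgeR adjusted p = 0.0139) and Slc39a7 (0.73, edgeR adjusted p = 0.0106). Slc39a3 (0.62, edgeR adjusted p = 0.0855) and Slc39a13 (0.50, edgeR adjusted p = 0.109) were then not called. In CKO against ONC the same correction left a median of -0.15, with -0.09 for Slc39a3, -0.11 for Slc39a13, -0.19 for Slc39a7 and -0.53 for Slc39a1.

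**Figure D3:**
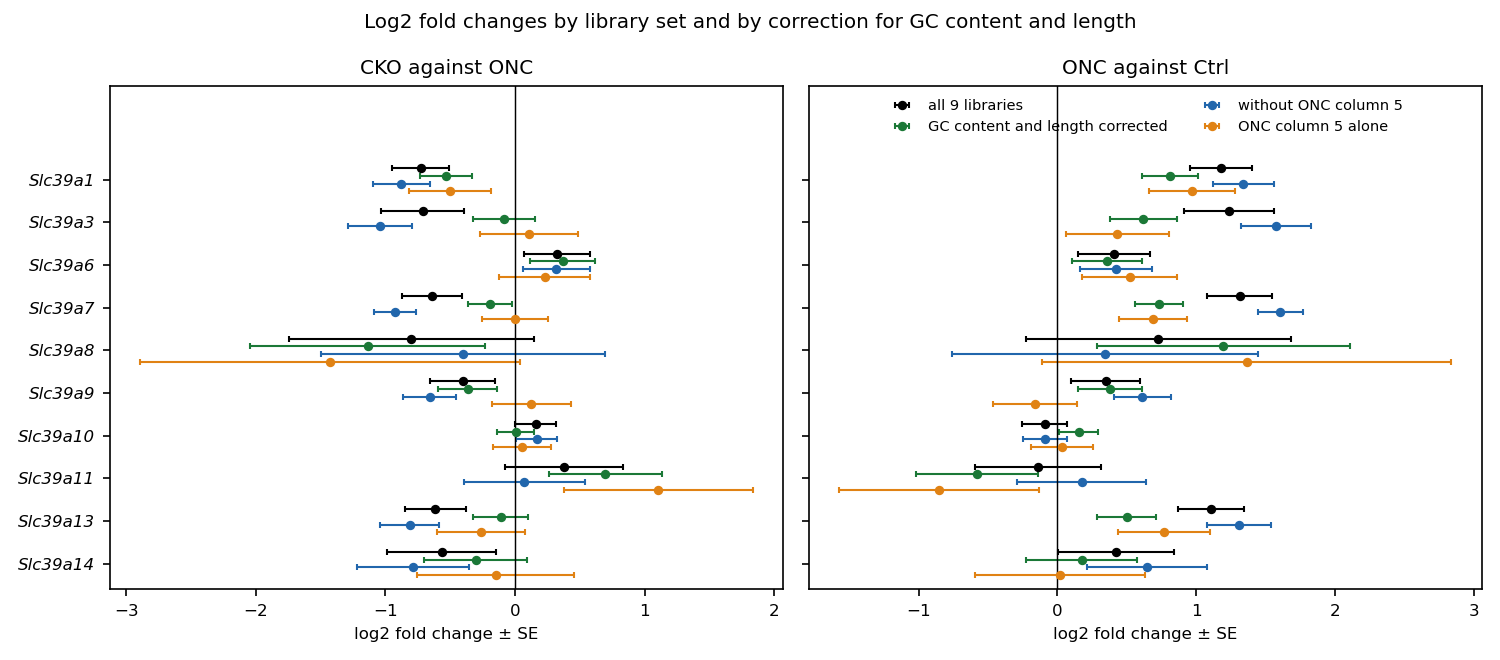
Log2 fold change ± SE of each listed Slc39 gene in CKO against ONC (left) and ONC against Ctrl (right), with all 9 libraries, with GC content and length corrected, without ONC column 5, and with ONC column 5 alone. Slc39a7 in CKO against ONC lies at -0.64, -0.19, -0.93 and -0.00089 in that order, and Slc39a1 keeps its sign in all 4 settings of both panels.

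Markers of other retinal cells moved with the same contrasts. The 10 Müller glia markers, none of them at 0 in any library, summed to 1976, 2081 and 2092 CPM by library totals in CKO, to 2300, 1761 and 2228 CPM in ONC columns 3, 5 and 6, and to 1461, 1546 and 1451 CPM in Ctrl. Columns 3 and 6 were thus highest and Ctrl lowest, as for Slc39a7. The 15 rod markers also had columns 3 and 6 highest, at 109422 and 106202 CPM, and Ctrl lowest, at 86836 to 87812 CPM. Column 5 lay below all CKO libraries for the Müller glia markers. For the rod markers it lay above them, at 101155 against 97720 to 101084 CPM. In ONC against Ctrl, 8 of 10 Müller glia markers were called higher (13% of all genes). Of the 15 rod markers, 10 were called higher and 2 lower (12.8% of all genes). Of 8 bipolar cell markers 3 were called lower, and of 3 horizontal cell markers tested 2 were. The 10 amacrine cell markers summed to 126 to 145 CPM in CKO, 190 to 223 CPM in ONC and 433 to 507 CPM in Ctrl. Of 9 tested, 5 were called lower in ONC than in Ctrl (12.8% of all genes). In CKO, 5 were called lower than in Ctrl (4.58%) and 1 lower than in ONC (0.278%). The part of these cells in the importer values was not tested.

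Levels of different genes were compared as CPM per kilobase of the longest annotated transcript. For Slc39a7, Slc39a8 and Slc39a14 that transcript (2433, 4212 and 5117 bases) is annotated as a retained intron. Their longest protein-coding transcripts have 2320, 3533 and 4926 bases. Slc39a7 had the highest mean in every group and Slc39a8 the lowest. In CKO, Slc39a7 (9.42 ± 0.618 CPM per kilobase) overlapped with Slc39a6 (8.72 ± 1.31), and a gap without overlap separated these from Slc39a10 (5.78 ± 0.489) and Slc39a1 (5.68 ± 1.31). In ONC, Slc39a7 (14.7 ± 4.63 CPM per kilobase) overlapped with Slc39a1 (9.41 ± 1.27), which lay clear of Slc39a6 (6.98 ± 0.386). In Ctrl, Slc39a7 (5.93 ± 0.796), Slc39a10 (5.53 ± 0.801), Slc39a6 (5.30 ± 2.29) and Slc39a1 (4.15 ± 0.408) each overlapped with the next.

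Slc39a10, whose own level hardly differed between groups, was thus among the higher members in CKO and Ctrl. In ONC (5.17 ± 0.319 CPM per kilobase) it lay below Slc39a1, Slc39a6, Slc39a13 and Slc39a3 by their means, with overlap with Slc39a13 and Slc39a3. Slc39a13, Slc39a3 and Slc39a9 spanned means of 3.38 to 4.04 CPM per kilobase in CKO, 4.48 to 6.19 in ONC and 2.47 to 3.52 in Ctrl, with neighbours overlapping in each group. A gap without overlap then set off Slc39a11 and Slc39a14, whose means stayed between 0.710 and 1.13 CPM per kilobase in all groups. Slc39a8 was at 0.0824 ± 0.0736 in CKO, 0.145 ± 0.0671 in ONC and 0.0884 ± 0.0522 in Ctrl.

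Summed over the 10 members, the level was 43.4, 40.6 and 43.0 CPM per kilobase in CKO. In ONC it was 61.6 for column 3, 43.0 for column 5 and 59.6 for column 6, against 30.5, 34.8 and 29.2 in Ctrl. Column 5 fell inside the CKO range, and all crushed libraries lay above all intact ones. The sum is led by Slc39a7, and it was not tested.

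**Figure D4:**
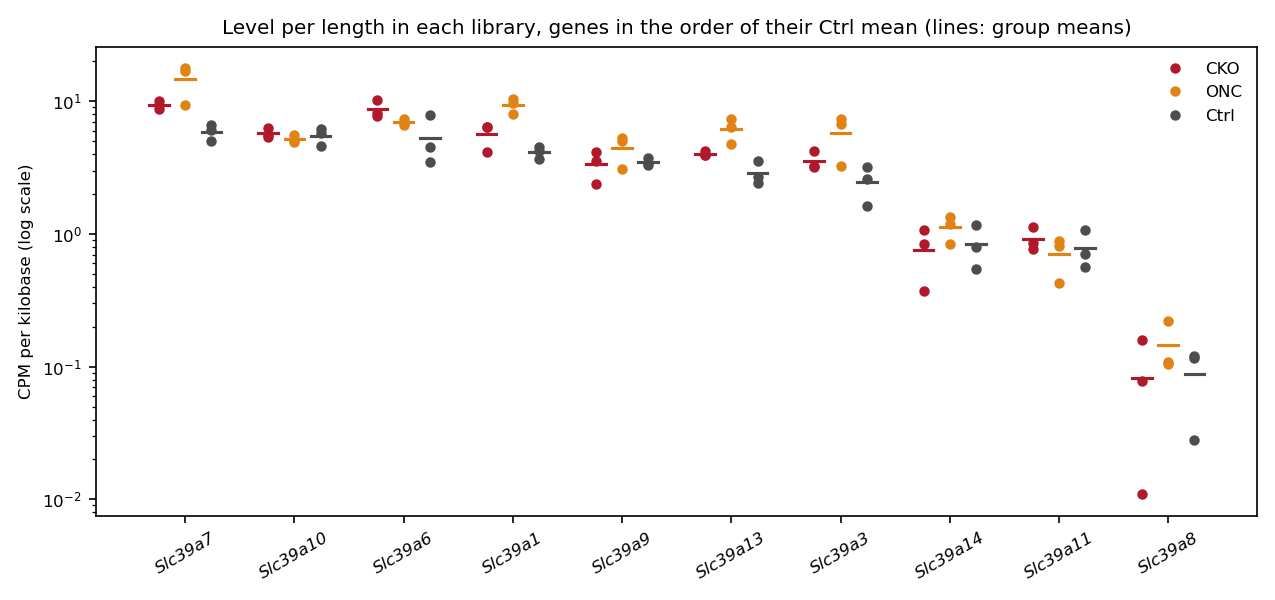
Level per length (CPM per kilobase of the longest annotated transcript, log axis) of each listed Slc39 gene in CKO, ONC and Ctrl from left to right, 1 point per library with a line at the group mean. Slc39a7 leads in each group, at means of 9.42, 14.7 and 5.93 in CKO, ONC and Ctrl, and Slc39a8 lies lowest.

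Neighbouring genes were examined for the 4 called members. Gm20427, an annotated processed transcript on the same strand, overlaps 3312 bases of Slc39a7 and has no row in the table, so the counts of Slc39a7 are uncertain to that extent. H2-Ke6 lies 209 bases from Slc39a7 on the same strand and was called higher in ONC than in Ctrl (0.54 ± 0.12, edgeR adjusted p = 0.0095). Rxrb, a retinoid X receptor gene 130 bases away on the opposite strand, had a log2 fold change of 1.25 ± 0.45 (edgeR adjusted p = 0.0594). Crtc2, a CREB coactivator gene 551 bases from Slc39a1, had one of 1.001 ± 0.353 (edgeR adjusted p = 0.0558). The fold changes of Slc39a7 and Slc39a1 were higher than those of these neighbours, and those differences were not tested.

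The other 4 Slc39 genes of the table were scarce, as were the listed Slc39a8 and Slc39a11. Slc39a12, a brain-enriched zinc importer, had 2, 1 and 21 counts in CKO, 9, 14 and 2 in ONC and 77, 16 and 47 in Ctrl. Ctrl lay above ONC without overlap, yet neither ONC against Ctrl (-2.48 ± 1.06, edgeR adjusted p = 0.104) nor CKO against Ctrl (-2.53 ± 1.07, edgeR adjusted p = 0.173) was called. In ONC against Ctrl, Slc39a12 was called lower by limma-voom (-2.79, limma-voom adjusted p = 0.0448), not by DESeq2 (DESeq2 adjusted p = 0.0589), and by edgeR without column 5 (-3.12, edgeR adjusted p = 0.0456). Slc39a2 had 38 to 58.8 counts in CKO, 37 to 56 in ONC and 27 to 65.31 in Ctrl, and was not called. Slc39a4, the intestinal importer, had 0, 0 and 2 counts in CKO, 8, 7 and 5 in ONC and 5, 28 and 1 in Ctrl, and Slc39a5 was at 0 in all 6 CKO and ONC libraries, which allows up to 0.127 to 0.142 CPM in each, and had 0, 1 and 3 counts in Ctrl. Both were below the filter.

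Slc30a1 to Slc30a10 were listed together as zinc exporters, although not every one need move zinc out of the cytosol. Of these, 7 of 10 were tested and none was called in any comparison. The median log2 fold change of these 7 was -0.25 in ONC against Ctrl and 0.42 in CKO against ONC. In CKO against ONC all 7 were above zero, as were 48.8% of all genes. Slc30a7, which loads zinc into the early secretory pathway, averaged 18.01 ± 3.74 CPM in CKO and 10.4 ± 2.52 CPM in ONC (0.79 ± 0.24, edgeR adjusted p = 0.0788), and its partner pathway member Slc30a5 averaged 48.5 ± 4.17 and 36.3 ± 3.19 CPM (0.42 ± 0.14, edgeR adjusted p = 0.0938). CKO lay above ONC without overlap for both, and also for Slc30a1 and Slc30a9, which made 4 of the 7. Of all genes, 26.2% had CKO and ONC groups that did not overlap in either direction. At an unadjusted p under 0.05 there were 2 exporters in CKO against ONC, 2 in CKO against Ctrl and 1 in ONC against Ctrl, of 7 each, where the shares over all genes were 27.2%, 23.9% and 39.7%. DESeq2 called 2 higher in CKO than in ONC (Slc30a5 and Slc30a7, with 7.5% of all genes), 2 higher in CKO than in Ctrl (Slc30a5 and Slc30a9, with 7.46%) and 0 between ONC and Ctrl, and limma-voom called 1 in all, Slc30a9 in CKO against Ctrl. Without column 5, 3 of 9 exporters tested were called higher in CKO than in ONC (18.6% of all genes): Slc30a6 (0.96, edgeR adjusted p = 0.000511), Slc30a7 (0.96, 0.00435) and Slc30a5 (0.45, 0.0164). In ONC against Ctrl that fit called 1 higher and 4 lower, beside 23.1% and 23.3% of all genes, and with column 5 alone none was called in either comparison of ONC.

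Among the zinc buffers and the zinc sensor, 4 of 5 were tested. With all libraries, edgeR called 2 higher in ONC than in Ctrl (13% of all genes). It called 2 higher in CKO than in Ctrl (4.32%) and 0 in CKO against ONC. Mt2, a metallothionein that binds zinc and is induced by it, averaged 31.7 ± 3.51 CPM in ONC and 11.9 ± 1.82 CPM in Ctrl and was called (1.42 ± 0.19, edgeR adjusted p = 0.00135). Mt3, the brain metallothionein, averaged 25.1 ± 1.45 CPM in ONC and 14.4 ± 5.17 CPM in Ctrl and was also called (0.80 ± 0.23, edgeR adjusted p = 0.0263). In CKO, Mt2 was at 56.4 ± 10.3 CPM, above Ctrl (2.25 ± 0.19, edgeR adjusted p = 0.000118) and with 0.83 ± 0.18 against ONC (edgeR adjusted p = 0.0512, not called). That difference was called by DESeq2 (DESeq2 adjusted p = 0.00191) and by limma-voom (limma-voom adjusted p = 0.0366). In CKO against ONC, DESeq2 called 7.5% of all genes higher, and limma-voom called 424 of 15841 genes higher. Mt1 was called in CKO against Ctrl, at 243 ± 33.1 CPM in CKO and 110 ± 17.4 CPM in Ctrl (1.14 ± 0.26, edgeR adjusted p = 0.02). DESeq2 also called Mt1 higher in CKO than in ONC (0.72, DESeq2 adjusted p = 0.0474) and limma-voom did not (limma-voom adjusted p = 0.0646). Mtf1, the zinc-sensing transcription factor, was not called in any comparison. Without column 5, Mt1 (1.11, edgeR adjusted p = 2.9e-05) and Mt2 (0.87, edgeR adjusted p = 0.00205) were called higher in CKO than in ONC (18.6% of all genes). With column 5 alone neither was (0.11 and 0.67), and in ONC against Ctrl that fit called Mt1 (1.05, edgeR adjusted p = 0.00264) and Mt2 (1.59, edgeR adjusted p = 0.00179) but not Mt3.

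Among proteins that bind, modify or resemble Slc39 members, 2 of 5 were called higher in ONC than in Ctrl (13% of all genes). Prnp, the prion protein, averaged 498 ± 38.1 CPM in ONC and 279 ± 16.8 CPM in Ctrl (0.84 ± 0.11, edgeR adjusted p = 0.00135). Ncam1, a neural adhesion molecule reported as a partner of ZIP6 and ZIP10, averaged 215 ± 40.7 CPM in ONC and 138 ± 7.27 CPM in Ctrl (0.64 ± 0.14, edgeR adjusted p = 0.00984). The 3 casein kinase 2 subunits were not called by edgeR with all libraries. Of these, Csnk2a1 was near the threshold (0.56 ± 0.19, edgeR adjusted p = 0.0504), was called by DESeq2 (0.58, DESeq2 adjusted p = 0.0235) and not by limma-voom (limma-voom adjusted p = 0.0558). Without column 5, Csnk2a1 was called higher (0.81, edgeR adjusted p = 0.00012) and Csnk2b lower (-0.25, edgeR adjusted p = 0.0357) in ONC than in Ctrl. Prnp was the only one of the 5 called in CKO against Ctrl (0.61 ± 0.11, edgeR adjusted p = 0.00756, with 4.32% of all genes called higher). None was called in CKO against ONC, where DESeq2 called Ncam1 lower (6.77% of all genes) and limma-voom called 0. An unadjusted p was under 0.05 there for 2 (27.2% of all genes). Without column 5, 3 were lower (18.1% of all genes) and 1 higher (18.6%) in CKO than in ONC, led by Ncam1 (-0.74, edgeR adjusted p = 1.2e-05). With column 5 alone, Prnp was still higher in ONC than in Ctrl (0.75, edgeR adjusted p = 0.00114), while Ncam1 was not called (0.31, edgeR adjusted p = 0.137).

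Other carriers that share metals with Slc39 members moved in both directions. Of 5, 1 was called higher and 1 lower in ONC than in Ctrl (13% and 12.8% of all genes). Slc11a2 (DMT1, an iron importer) was called higher in ONC than in Ctrl, at 23.3 ± 4.20 and 13.8 ± 1.34 CPM (0.76 ± 0.21, edgeR adjusted p = 0.0236). Atp2c1, the Golgi calcium and manganese pump, was called lower, at 94.7 ± 23.3 and 152 ± 10.4 CPM (-0.69 ± 0.17, edgeR adjusted p = 0.0135). Tfrc, Slc40a1 and Trpm7 were not called there with all libraries. Without column 5, all 3 were called lower in ONC than in Ctrl: Tfrc (-0.36, edgeR adjusted p = 0.00982), Slc40a1 (-2.003, edgeR adjusted p = 0.00948) and Trpm7 (-0.27, edgeR adjusted p = 0.0344), so that 1 of the 5 was higher and 4 were lower (23.3% of all genes). With all libraries, none of the 5 was called in either comparison of CKO. An unadjusted p was under 0.05 for 3 against ONC and 0 against Ctrl (27.2% and 23.9% of all genes). Against ONC, DESeq2 called Slc11a2 lower (6.77% of all genes) and Tfrc higher (7.5%). It called 0 against Ctrl, and limma-voom called 0 in both. Without column 5, Slc11a2 was lower in CKO than in ONC (-0.77, edgeR adjusted p = 0.00892), and Atp2c1 (0.66, edgeR adjusted p = 0.000241) and Tfrc (0.44, edgeR adjusted p = 0.00352) were higher. With column 5 alone, none of the 5 was called in ONC against Ctrl (0.52 for Slc11a2 and -0.30 for Atp2c1).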

How the data were processed

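RNA of sorted cells was amplified with the Discover-sc WTA Kit V2 and made into libraries with the TruePrep DNA Library Prep Kit V2, per the labels' protocols. The submitters' processing notes name Trimmomatic 0.36 with GRCm38 and mm10 as genome builds, and the aligner, counter and annotation are not given in the sources used here. The table deposited by the authors held unnormalized expected counts per gene and library, and 9 FPKM columns that were not used, since those of ONC could not be matched to samples. Expected counts were rounded and tested in R 4.3.3 with edgeR 4.0.16 (filterByExpr by group, TMM, quasi-likelihood fit of all 9 libraries without covariates, Benjamini-Hochberg over 15841 genes, 1630 of them unnamed assembled loci). DESeq2 1.42.0, limma-voom (limma 3.58.1), other scalings, filters and library sets were alternatives. The test was checked on simulated data. Levels per length divided CPM by the longest annotated transcript. Symbols, positions, transcript lengths and GC content came from GENCODE mouse M21. Ctrl and CKO columns carried the labels' replicate numbers, and ONC columns did not. The named genes were all listed members, the other Slc39 genes, the gene most like each member, neighbours within 2000 bases of called members, and, of the lists of zinc and metal genes, those called or of lowest p. Members and lists were chosen with earlier results of these data known. Without molecular identifiers, amplified reads are not independent molecules, so a counting floor covers counting error alone.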

Additional observations from a re-analysis of the deposited data

How the results depend on the processing

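Of 21 alternatives, 9 left out 1 library each. The count of members called in ONC against Ctrl (4) was 0 with ONC column 5 alone and 2 with the GC content and length correction, and 3 to 5 with 1 library left out. In CKO against ONC (0) it was 1 by DESeq2 and 0 to 5 with 1 library left out, the 5 without ONC column 5. In CKO against Ctrl (0) it was 1 by limma-voom (Slc39a6), 1 with only the 2 groups and 1 with ONC column 5 alone (Slc39a7 in both), and 0 to 2 with 1 library left out: Slc39a6 and Slc39a7 without ONC column 5, and Slc39a6 without Ctrl replicate 2 (1.13, edgeR adjusted p = 0.0161). Over all genes, the count called was 4080, with 1165 (ONC column 5 alone) to 7644 (without it), in ONC against Ctrl. In CKO against ONC it was 137, with 2 to 6049, and in CKO against Ctrl 1409, with 464 to 3524. With ONC columns 3 and 6 summed into 1 library, 3 members were called in ONC against Ctrl and Slc39a3 was not (edgeR adjusted p = 0.0638). In that fit 1221 of 16449 genes were called higher. In CKO against Ctrl, 1601 of 15317 genes were called higher with only the 2 groups. Without ONC column 5 it was 1942 of 16487 genes, and without Ctrl replicate 2 it was 459 of 16378.

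Whether the replicate numbers of CKO and Ctrl pair the samples is not stated in the labels. The deviations of same-numbered samples had correlations of 0.002 to 0.015, and those of other numbers -0.029 to 0.021. These values do not decide it, since a pairing of small effect could give them too. With the replicate block, 2 members were called in CKO against Ctrl (1468 of 15317 genes were called higher): Slc39a6 (0.80, edgeR adjusted p = 0.013) and Slc39a7 (0.68, edgeR adjusted p = 0.0285). With the replicate block and the GC content and length correction 1 was called (1421 of 13836 genes higher), Slc39a6 (0.79, edgeR adjusted p = 0.0115).

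Signs of small fold changes turned. In ONC against Ctrl these were Slc39a9 (-0.16) and Slc39a10 (0.032) with column 5 alone and Slc39a10 (0.15) with the GC content and length correction, and with 1 library left out Slc39a10 (-0.16 to 0.039) and Slc39a11 (-0.29 to 0.21). In CKO against ONC they were Slc39a3 (0.11) and Slc39a9 (0.12) with column 5 alone. In CKO against Ctrl they were Slc39a8 (0.056) and Slc39a9 (0.011) with the GC content and length correction and Slc39a10 (-0.0027) with library totals, and with 1 library left out Slc39a8 (-0.94 to 0.45), Slc39a9 (-0.23 to 0.15), Slc39a10 (-0.042 to 0.16) and Slc39a14 (-0.46 to 0.20). Scaling by library totals moved the median of all genes in CKO against ONC to -0.128. Where no cause is given, the cause was not tested. Depth limits Slc39a8, Slc39a4 and Slc39a5, which are near the floor of 3 counts.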
